A study of Mus musculus with 6 samples.

Results

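The ligands, receptors and co-receptors of the vascular endothelial growth factor (VEGF) family, with the angiopoietin receptor *Tek* and the endothelin receptor *Ednrb*, were examined in lumbar spinal cord microglia of SOD1 G93A and WT mice. The 10 genes were taken by name, and each of their 24 probe sets that maps to a single gene symbol was used, of 45037 probe sets and 18193 genes measured. SOD1 G93A mice carry a human SOD1 transgene at high copy number, with a mutation of familial amyotrophic lateral sclerosis, on a mixed B6SJL background, and the WT mice were littermates without it. Males of both genotypes were 90 days old (P90), an early symptomatic age. Cells positive for CD11b were sorted from the lumbar segments of at least 6 pooled mice per array, and RNA was measured on 3 Affymetrix mouse arrays per genotype (the spread given is therefore one between pools of mice).

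VEGF-A, VEGF-B and placental growth factor bind the tyrosine kinase receptor encoded by *Flt1*, VEGF-A and VEGF-C bind that encoded by *Kdr*, and the neuropilins encoded by *Nrp1* and *Nrp2* are co-receptors that also bind class 3 semaphorins. *Kdr* carries most of the growth signal in endothelial cells, while *Flt1* binds VEGF-A more tightly, signals weakly, and is also made in a soluble form that traps the ligand. Monocytes and macrophages use *Flt1* to migrate towards VEGF-A and placental growth factor, and *Ednrb* is a receptor gene of astrocytes and endothelial cells in the nervous system.

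Of the 24 probe sets, 7 rose and 1 fell in the cells sorted from SOD1 G93A mice and 16 did not pass, at a threshold of 0.05 for limma's adjusted p. Over all probe sets 2.71% rose and 1.93% fell by the same rule, 4.64% together. The members were chosen with earlier results of these data known, so these shares describe them and are not an independent test. The 7 that rose belonged to *Flt1*, *Nrp1* and *Nrp2*, and the 1 that fell to *Ednrb*, while no probe set of the 6 other genes passed. The median log2 fold change (SOD1 G93A minus WT) of the 24 probe sets was 0.38, beside 0.0032 over all probe sets. The arrays of both genotypes did not overlap in 13 probe sets that were higher and 2 that were lower in SOD1 G93A, where 13.4% and 11.3% of all probe sets did so, 24.7% together. Values below are log2 signals, in which a difference of 1 is a doubling, and levels are compared between genotypes and not between probe sets, whose brightness depends on their sequence. A log2 signal below 5 was taken as close to background.

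The sorted cells carried microglial, neutrophil and oligodendrocyte transcripts at high signal. *Cx3cr1* averaged 13.58 in SOD1 G93A and 13.62 in WT arrays, and *Itgam*, which encodes CD11b, 8.71 in SOD1 G93A and 8.73 in WT arrays. *S100a8*, an abundant transcript of neutrophils, averaged 14.14 in SOD1 G93A and 14.49 in WT arrays. *Mbp*, a myelin transcript of oligodendrocytes, averaged 12.38 in SOD1 G93A and 13.54 in WT arrays. Of 11 microglial markers 1 fell and 10 did not pass. A first principal component with 46.4% of the variance separated the genotypes, and both arrays numbered 1 stood apart on the next, which held 28.0%. A control for the length of the labelled RNA, the log2 signal at the 3' end of *Gapdh* less that at its 5' end, was 4.12 ± 0.59 in SOD1 G93A and 4.89 ± 0.11 in WT arrays (SD, n = 3 each). These did not overlap (difference -0.77, p = 0.1 in a two-sided exact permutation test, which can go no lower with 3 arrays against 3). With this measure as a covariate no member probe set passed in limma, while 8 were higher and 1 was lower at an unadjusted p under 0.05. The differences of the called *Flt1* and *Nrp2* probe sets stayed close to those without it, at 1.27 for *Flt1* 1419300_at, 0.89 for 1440926_at and 0.80 for 1451756_at, and at 0.96 for *Nrp2* 1435349_at and 0.98 for 1456778_at. Those of *Nrp1* 1418084_at and *Ednrb* 1437347_at were clearly smaller with it, and that of *Nrp1* 1448944_at slightly smaller, as given below for each gene. Since the measure did not overlap between the genotypes, this fit cannot well separate the measure from genotype.

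**Figure D1:**
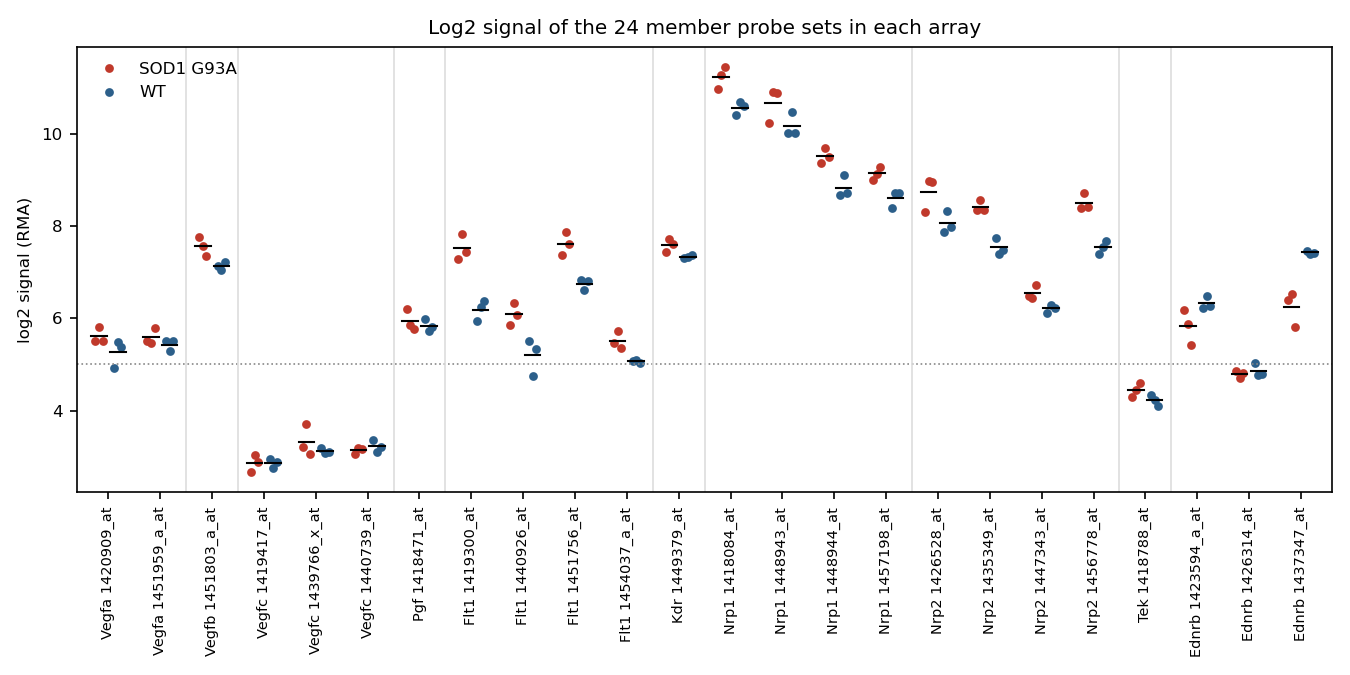
Log2 signal of each of the 24 probe sets (x axis) in every array, SOD1 G93A in red and WT in blue, with the mean of each genotype as a bar and the limit of 5 dotted. The *Flt1*, *Nrp1* and *Nrp2* probe sets lie higher in SOD1 G93A, *Ednrb* 1437347_at lies lower, and *Vegfc* and *Tek* stay below 5.

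*Flt1*, the gene of VEGF receptor 1, was higher in SOD1 G93A arrays by each of its 4 probe sets. For 1419300_at the log2 signals were 7.28, 7.84 and 7.44 in SOD1 G93A arrays, against 5.95, 6.25 and 6.37 in WT arrays. The lowest SOD1 G93A array thus lay above the highest WT array, and the means of 7.52 ± 0.29 in SOD1 G93A and 6.19 ± 0.21 in WT arrays (SD, n = 3 each) correspond to a 2.52-fold higher signal in SOD1 G93A (log2 fold change 1.33 with a standard error of 0.17, adjusted p = 0.00546 from limma). By 1451756_at *Flt1* had 7.37, 7.87 and 7.61 in SOD1 G93A and 6.82, 6.63 and 6.80 in WT arrays, a log2 fold change of 0.87 (adjusted p = 0.0149 from limma). The 1440926_at signals were 5.85, 6.34 and 6.08 in SOD1 G93A and 5.51, 4.74 and 5.34 in WT, a difference of 0.89 that passed narrowly (adjusted p = 0.0474 from limma). SOD1 G93A replicate 2 was the highest array in all 4 probe sets. The last probe set, 1454037_a_at, gave 5.47, 5.73 and 5.36 in SOD1 G93A and 5.07, 5.10 and 5.04 in WT, and its difference of 0.45 (95% interval 0.17 to 0.72) did not pass (adjusted p = 0.0757 from limma). Which transcripts of *Flt1*, membrane-bound or soluble, each probe set reads was not examined here. When each array was left out in turn, 1419300_at passed in all 6 fits with a log2 fold change of 1.17 to 1.45. By contrast 1451756_at lost its call without SOD1 G93A replicates 2 or 3 and WT replicates 2 or 3 (adjusted p = 0.0547, 0.0654, 0.0641 and 0.0607), and 1440926_at without the same arrays (adjusted p = 0.157, 0.141, 0.102 and 0.112).

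In sorted bulk RNA, more cells of a type and more RNA per cell cannot be told apart, and *Flt1* is also an endothelial gene. Of 17 other endothelial markers measured, 0 passed in limma, and their median log2 fold change was 8e-04. At an unadjusted p under 0.05 the list had 1 marker, *Egfl7*, which was lower in SOD1 G93A (-0.35). The summed signal of these markers ranged from 1482 to 1729 in SOD1 G93A arrays and from 1565 to 1744 in WT arrays, on the linear scale, so the genotypes overlapped. *Cldn5*, of endothelial tight junctions, had 7.04, 7.55 and 7.38 in SOD1 G93A and 7.32, 7.03 and 7.33 in WT arrays. *Pecam1*, which encodes the endothelial adhesion protein CD31, had 6.32, 6.18 and 6.24 in SOD1 G93A and 6.23, 5.79 and 6.19 in WT arrays. *Tie1*, *Emcn* and *Sox17* were below 5 in both genotypes. *Vwf*, the von Willebrand factor gene, had the largest difference of the list, at 0.71 with overlapping arrays (adjusted p = 0.29 from limma).

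The other receptor kinases of the family differed less. *Kdr*, of VEGF receptor 2, had log2 signals of 7.45, 7.73 and 7.61 in SOD1 G93A arrays and 7.31, 7.32 and 7.37 in WT arrays. The genotypes did not overlap, but the difference of 0.26 (standard error 0.11, 95% interval 0.0096 to 0.51) did not pass (adjusted p = 0.238 from limma). The angiopoietin receptor gene *Tek* lay close to background, with 4.29, 4.45 and 4.60 in SOD1 G93A and 4.34, 4.24 and 4.11 in WT arrays, a difference of 0.22 with overlapping arrays (95% interval -0.059 to 0.49, adjusted p = 0.379 from limma). Its signal is too low for a change in size to be read.

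*Nrp1*, of neuropilin 1, had high signals in both genotypes, and its 4 probe sets were all higher in SOD1 G93A by 0.51 to 0.68. The 1418084_at signals were 10.99, 11.27 and 11.45 in SOD1 G93A arrays, against 10.41, 10.69 and 10.62 in WT arrays. No WT array reached the lowest SOD1 G93A array, and the rise was 1.58-fold (log2 fold change 0.66 with a standard error of 0.14, adjusted p = 0.037 from limma). By 1448944_at *Nrp1* had 9.38, 9.69 and 9.50 in SOD1 G93A and 8.68, 9.11 and 8.73 in WT arrays, which was 1.61-fold higher in SOD1 G93A (adjusted p = 0.0354 from limma). The 1457198_at arrays did not overlap either, with 9.01, 9.14 and 9.28 in SOD1 G93A and 8.39, 8.72 and 8.72 in WT, though the difference of 0.54 did not pass (adjusted p = 0.0558 from limma). For 1448943_at, SOD1 G93A replicate 1 (10.25) lay below WT replicate 2 (10.48), and the difference of 0.51 did not pass (adjusted p = 0.207 from limma). Of the 6 fits that each left out 1 array, 1418084_at passed in 1, without SOD1 G93A replicate 1, and reached an adjusted p of 0.131 without SOD1 G93A replicate 3, 0.123 without SOD1 G93A replicate 2, and 0.0709, 0.0826 and 0.11 without WT replicates 1, 2 and 3. The call of 1448944_at was lost without SOD1 G93A replicates 2 and 3 or WT replicates 1 and 3 (adjusted p = 0.126, 0.113, 0.0685 and 0.13). Both called *Nrp1* probe sets lay below the fold threshold that the study's methods set. With the *Gapdh* covariate the *Nrp1* difference by 1418084_at was 0.36 and that by 1448944_at 0.60.

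*Nrp2*, of neuropilin 2, rose by 2 of its 4 probe sets, and each of the 4 was higher in SOD1 G93A. For 1456778_at the log2 signals were 8.39, 8.73 and 8.41 in SOD1 G93A arrays and 7.39, 7.56 and 7.68 in WT arrays, so the genotypes stood apart. The rise was 1.95-fold (log2 fold change 0.97 with a standard error of 0.13, adjusted p = 0.00765 from limma), and it passed in each fit that left out 1 array (0.86 to 1.03). By 1435349_at *Nrp2* had 8.36, 8.56 and 8.36 in SOD1 G93A and 7.75, 7.40 and 7.48 in WT arrays, a 1.84-fold rise (adjusted p = 0.00966 from limma) that just missed the threshold without SOD1 G93A replicate 2 or WT replicate 3 (adjusted p = 0.0501 and 0.0514). The brightest probe set, 1426528_at, spread more widely, with 8.30, 8.97 and 8.96 in SOD1 G93A and 7.88, 8.33 and 7.99 in WT arrays. SOD1 G93A replicate 1 there lay below WT replicate 2, and the difference of 0.68 did not pass (adjusted p = 0.0977 from limma). Without SOD1 G93A replicate 1 it was 0.90 and passed (adjusted p = 0.0193). The dimmest, 1447343_at, gave 6.49, 6.45 and 6.72 in SOD1 G93A and 6.12, 6.30 and 6.23 in WT, a difference of 0.34 (adjusted p = 0.148 from limma).

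The probe sets of a gene were also averaged before the fit, with p adjusted over 18193 genes. *Flt1* then had 6.69 ± 0.23 in SOD1 G93A and 5.80 ± 0.11 in WT arrays (SD, n = 3 each), a difference of 0.88 (adjusted p = 0.00596 from limma). *Nrp2* averaged 8.06 ± 0.15 in SOD1 G93A and 7.34 ± 0.05 in WT arrays (difference 0.72, adjusted p = 0.0054), and *Nrp1* averaged 10.15 ± 0.21 in SOD1 G93A and 9.55 ± 0.19 in WT arrays (difference 0.60, adjusted p = 0.0329). *Ednrb* averaged 5.62 ± 0.24 in SOD1 G93A and 6.21 ± 0.04 in WT arrays (difference -0.59, adjusted p = 0.0252 from limma). In these gene averages SOD1 G93A replicate 1 was the lowest SOD1 G93A array for *Flt1*, *Nrp1*, *Nrp2* and *Kdr*, and still lay above each WT array.

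**Figure D2:**
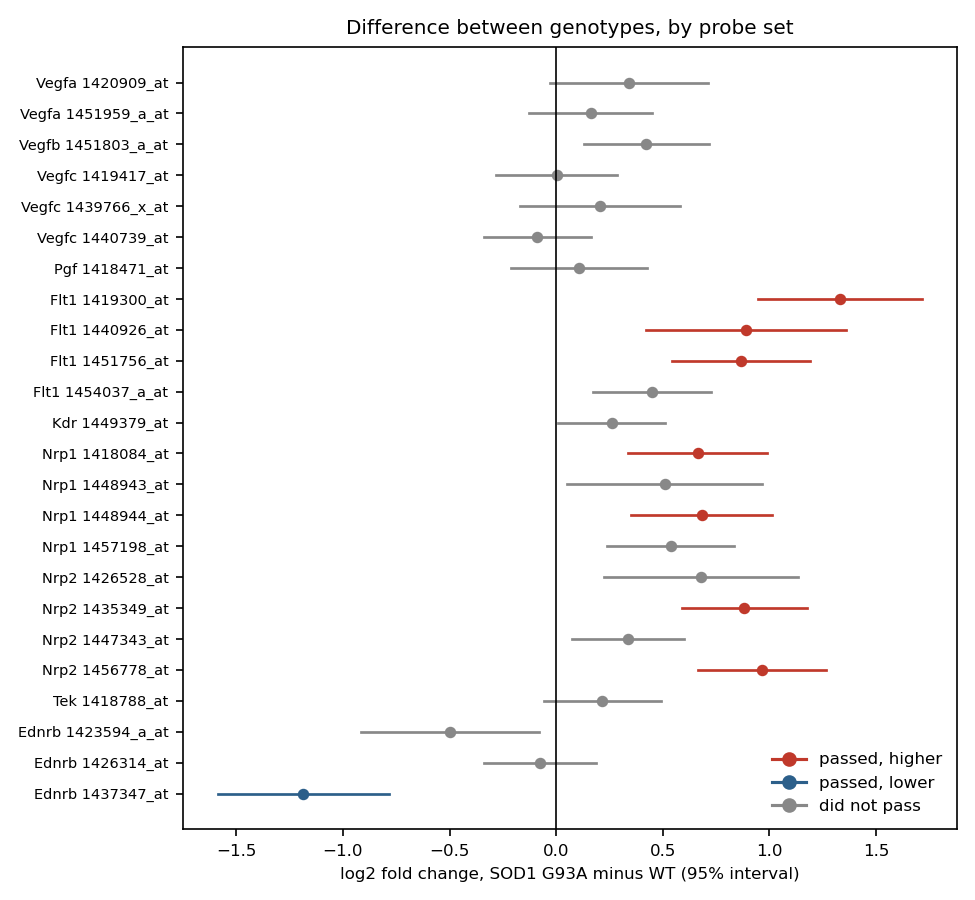
Log2 fold change (SOD1 G93A minus WT, x axis) of each member probe set with its 95% interval from limma, red where it rose, blue where it fell and grey where it did not pass. The largest rise is that of *Flt1* 1419300_at (1.33), and the fall is that of *Ednrb* 1437347_at (-1.19).

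None of the 7 ligand probe sets passed in limma, and 1 of them, that of *Vegfb*, was under 0.05 in unadjusted p. *Vegfa*, the main ligand of both receptor kinases, had 5.51, 5.81 and 5.51 in SOD1 G93A arrays and 4.93, 5.49 and 5.38 in WT arrays by 1420909_at. The gap between the genotypes there was narrow, and the difference of 0.34 (95% interval -0.03 to 0.71) did not pass (adjusted p = 0.299 from limma). Its other probe set, 1451959_a_at, had 5.52, 5.48 and 5.79 in SOD1 G93A and 5.51, 5.28 and 5.51 in WT arrays, which overlapped (difference 0.16, 95% interval -0.13 to 0.45). *Vegfb*, a ligand of *Flt1* and not of *Kdr*, had the largest difference among the ligands, with 7.77, 7.57 and 7.35 in SOD1 G93A and 7.14, 7.06 and 7.21 in WT arrays. The arrays stood apart, but the difference of 0.42 (95% interval 0.13 to 0.72) did not pass over all probe sets (adjusted p = 0.107 from limma). *Pgf*, the gene of placental growth factor, had 6.21, 5.87 and 5.77 in SOD1 G93A and 5.98, 5.73 and 5.81 in WT arrays, with overlap and a difference of 0.11 (95% interval -0.21 to 0.43). The 3 probe sets of *Vegfc*, whose product acts mainly on lymphatic vessels, lay between 2.67 and 3.71 on the 6 arrays, close to background, with differences of -0.088 to 0.21. A missed threshold does not show that a ligand was alike in both genotypes, and the intervals give the differences these arrays allow.

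*Ednrb*, of the endothelin B receptor, was the member that fell. By 1437347_at its log2 signals were 6.39, 6.54 and 5.82 in SOD1 G93A arrays, against 7.47, 7.40 and 7.43 in WT arrays. The WT arrays lay close together and above each SOD1 G93A array, of which replicate 3 was the lowest, and the log2 fold change was -1.19 (standard error 0.18, adjusted p = 0.0105 from limma), which is 2.27-fold higher in WT. The 1423594_a_at signals were 6.18, 5.88 and 5.43 in SOD1 G93A and 6.22, 6.49 and 6.27 in WT. These did not overlap either, and the difference of -0.50 (95% interval -0.91 to -0.082) did not pass (adjusted p = 0.173 from limma). The third probe set, 1426314_at, was close to background, at 4.79 ± 0.07 in SOD1 G93A and 4.87 ± 0.15 in WT arrays (SD, n = 3 each). Without WT replicate 3 the adjusted p of 1437347_at was 0.0516, and with the *Gapdh* covariate its difference was -0.76.

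Astrocytes also express *Ednrb*. Of 13 astrocyte markers measured, 4 fell and 9 did not pass, where 2.08% of all genes fell by their brightest probe set, and the median log2 fold change was -0.79. Their summed linear signal ranged from 1452 to 2795 in SOD1 G93A arrays and from 3324 to 6899 in WT arrays, so the genotypes did not overlap. The mean log2 signal of the 13 markers was 7.16, 6.75 and 6.43 in SOD1 G93A replicates 1, 2 and 3, and 8.10, 7.41 and 7.32 in WT replicates 1, 2 and 3. SOD1 G93A replicate 3 was thus the lowest array for the astrocyte markers, as it was for *Ednrb* by 1437347_at. It was also the lowest for the means of the oligodendrocyte, neuronal, border macrophage and fibroblast markers. The highest SOD1 G93A array was replicate 1 for the astrocyte markers and replicate 2 for *Ednrb* 1437347_at, but replicate 1 for *Ednrb* 1423594_a_at. The mean of the 3 *Ednrb* probe sets was 5.81, 5.71 and 5.35 in SOD1 G93A replicates 1, 2 and 3. In WT replicates 1, 2 and 3 that mean was 6.24, 6.22 and 6.17, which differed little. The order of the replicates by this mean was that of the astrocyte markers in both genotypes. WT replicate 1 was the highest WT array for the astrocyte markers. It was so by little for *Ednrb* 1437347_at, and was the lowest WT array by 1423594_a_at. *Slc1a2*, an astrocyte glutamate transporter gene, had a log2 fold change of -1.60, *Aldoc* -1.33, *Slc1a3* -0.65 and *Gjb6* -0.60, and the call of each was lost in at least 3 of the fits that left out 1 array. *Gfap*, an intermediate filament gene of astrocytes, and *Aldh1l1* had differences of 0.33 and 0.06 with overlapping arrays and did not pass. None of the 13 markers lay below 5 in both genotypes. The part of astrocyte RNA in the fall of *Ednrb* was not tested.

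Macrophages at vessels and meninges, monocytes and neutrophils are other CD11b-positive cells. Most of their markers that passed fell. Of 10 markers of border macrophages 4 fell (*F13a1*, *Maf*, *Pf4* and *Stab1*) and *Ms4a7* rose (median -0.73), calls that held in 0 (*Stab1*) to 4 (*Maf*) of the 6 fits that left out 1 array, with a summed signal of 7265 to 8885 in SOD1 G93A and 13043 to 15050 in WT arrays. Of 8 monocyte markers 5 fell (median -1.06), with a summed signal of 7496 to 13652 in SOD1 G93A and 14384 to 25197 in WT arrays. Their calls held in 1 to 6 of those 6 fits, and those of *Ccr2*, *S100a4* and *S100a10* held in all 6. Of 9 neutrophil markers *Prtn3* and *Cxcr2* fell (median -0.52), each called in 1 of those 6 fits, with a summed signal of 52132 to 74059 in SOD1 G93A and 65154 to 105191 in WT arrays, which overlapped. Of 10 neuronal markers *Nefl*, *Nefm* and *Map2* fell (median -0.35), with a summed signal of 582 to 711 in SOD1 G93A and 992 to 1357 in WT arrays, and 3 of the 10 lay below 5 in both genotypes. The call of *Nefl* held in all 6 of those fits, that of *Nefm* in 4 and that of *Map2* in 2. The part of these cells in the members' values was not tested. Among 12 pericyte and smooth muscle markers 1 passed, *Cspg4*, the gene of the proteoglycan NG2, which rose by 0.81 and by 1.67 with its other probe set. The median of that list was -0.013, and its summed signal was 1172 to 1240 in SOD1 G93A and 1212 to 1289 in WT arrays.

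**Figure D3:**
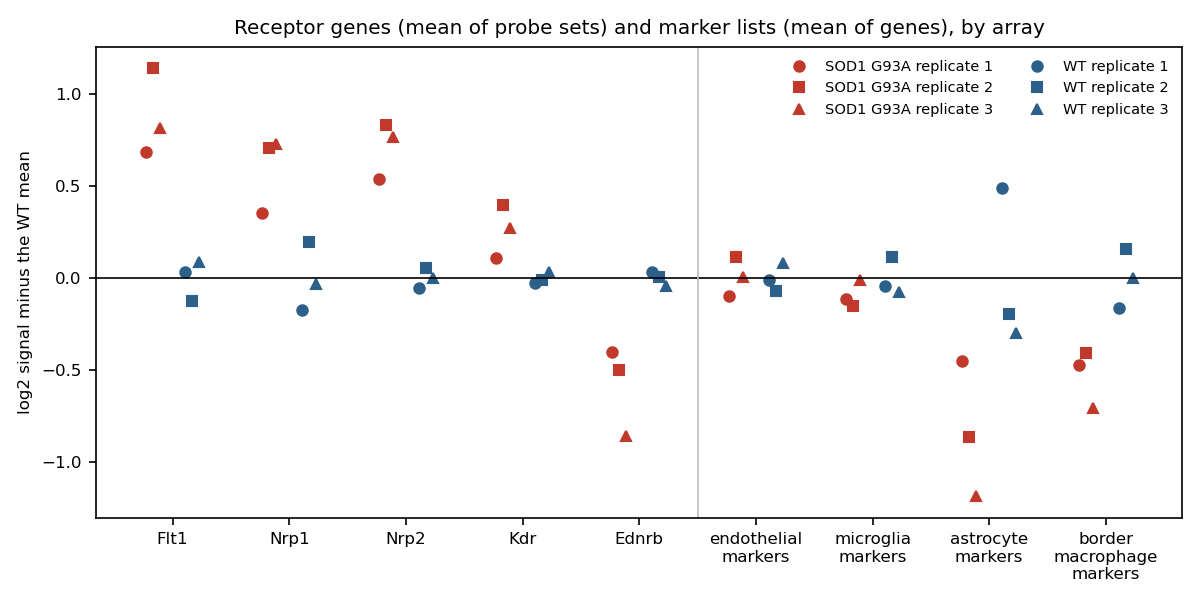
Log2 signal of each array minus the WT mean (y axis) for 5 receptor genes, as the mean of their probe sets, and for 4 marker lists, as the mean of their genes, with SOD1 G93A in red and WT in blue and a symbol per replicate number. *Flt1*, *Nrp1* and *Nrp2* lie above the WT arrays while the endothelial and microglia markers overlap. *Ednrb*, the astrocyte markers and the border macrophage markers lie below the WT arrays.

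The promoters of the 4 genes that passed, 3 higher and 1 lower, are shown with a search for the core of the hypoxia response element. Whether hypoxia-inducible factors act on these genes in these cells was not tested, and sites further than 250 bases before the start site were not searched. Each is the stretch of 250 bases before the annotated start site, 5′ to 3′ on the gene's strand, from RefSeq on GRCm38.p6, a build that serves here for these sequences alone. Capitals mark the core of the hypoxia response element, ACGTG or GCGTG, on either strand (CACGT or CACGC where it lies on the other).
Flt1, chr5:147726012-147726261, minus strand: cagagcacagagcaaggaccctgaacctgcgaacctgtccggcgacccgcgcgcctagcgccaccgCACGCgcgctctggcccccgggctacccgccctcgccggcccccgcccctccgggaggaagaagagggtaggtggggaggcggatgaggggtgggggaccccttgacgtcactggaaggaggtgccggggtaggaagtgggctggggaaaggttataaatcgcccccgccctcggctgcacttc
Nrp1, chr8:128358823-128359072, plus strand: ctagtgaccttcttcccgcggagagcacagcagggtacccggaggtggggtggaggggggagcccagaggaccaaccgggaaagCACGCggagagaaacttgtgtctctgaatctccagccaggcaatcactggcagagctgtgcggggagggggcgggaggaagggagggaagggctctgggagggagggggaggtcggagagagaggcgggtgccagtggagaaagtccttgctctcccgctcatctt
Nrp2, chr1:62703067-62703316, plus strand: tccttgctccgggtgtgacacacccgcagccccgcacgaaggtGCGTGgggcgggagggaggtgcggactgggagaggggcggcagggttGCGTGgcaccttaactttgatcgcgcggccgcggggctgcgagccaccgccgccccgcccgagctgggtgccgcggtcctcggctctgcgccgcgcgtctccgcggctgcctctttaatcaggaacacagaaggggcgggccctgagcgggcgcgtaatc
Ednrb, chr14:103843702-103843951, minus strand: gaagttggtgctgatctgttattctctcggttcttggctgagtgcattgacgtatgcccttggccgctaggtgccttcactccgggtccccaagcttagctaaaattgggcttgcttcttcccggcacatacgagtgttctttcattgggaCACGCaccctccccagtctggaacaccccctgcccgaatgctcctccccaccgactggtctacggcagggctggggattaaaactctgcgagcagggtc
*Flt1*, *Nrp1* and *Ednrb* each held 1 match and *Nrp2* held 2, all of GCGTG, with that of *Flt1* starting 184 bases before the start site, that of *Nrp1* 166, those of *Nrp2* 207 and 160, and that of *Ednrb* 99. ACGTG was in none of the 4 stretches. All 10 members had a promoter in the table, 12 stretches in all, of which 8 held a match, among 32851 promoters of which 38.6% did (16.6% held ACGTG and 28.2% GCGTG). *Kdr* and *Vegfb*, which did not pass, held 2 matches each, and *Tek* and *Vegfc* held 0. *Vegfa*, which did not pass either, held 1 match of ACGTG and 1 of GCGTG in 1 stretch and 0 in its other stretch. *Pgf*, also not passed, held 1 match in 1 stretch and 0 in its other. The 4 stretches shown are rich in G and C, at 70.4% for *Flt1*, 64.4% for *Nrp1*, 72.4% for *Nrp2* and 56.8% for *Ednrb*. A match is a run of letters and does not show that a factor binds there.

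Other genes of the pathway, 106 listed by role and 97 measured, had 6 higher and 4 lower in SOD1 G93A, each gene by its brightest probe set, where 3.53% of all genes were higher and 2.08% lower, 5.61% together. Their median log2 fold change was 0.036, beside 0.022 over all genes. *Egln3*, which encodes a prolyl hydroxylase that marks hypoxia-inducible factors for decay and is itself one of their targets, had 8.19, 8.74 and 8.66 in SOD1 G93A arrays and 6.86, 6.57 and 7.22 in WT arrays. The arrays stood well apart, with a 3.13-fold rise (log2 fold change 1.65, adjusted p = 0.00442 from limma) that passed in all 6 fits that left out 1 array. Its other probe set was higher by 0.60 and did not pass (adjusted p = 0.0611). *Hif1a*, of the oxygen-regulated factor itself, rose by 0.80 in its brightest probe set (adjusted p = 0.0455 from limma), and by 0.99 and 0.96 in the next 2, while the last did not pass at 0.66. That brightest probe set passed in 2 of the 6 fits, and its adjusted p reached 0.16 without SOD1 G93A replicate 3, 0.148 without SOD1 G93A replicate 2, and 0.116 and 0.158 without WT replicates 2 and 3. *Ndrg1*, a gene induced by hypoxia that is also strongly expressed by oligodendrocytes, fell, with a log2 fold change of -0.99 (adjusted p = 0.00312 from limma). Of 11 oligodendrocyte markers 2 fell and 9 did not pass, with a median of -0.27 and a summed signal of 9718 to 10837 in SOD1 G93A and 15839 to 23375 in WT arrays, and their part in *Ndrg1* was not tested. Of the 23 hypoxia regulators and targets, 2 thus rose, 1 fell and 20 did not pass, with a median of 0.20. At an unadjusted limma p under 0.05, which many of all probe sets reached, 9 of the 23 were higher and 2 lower.

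Among the ligands related to VEGF, *Pdgfc*, of a platelet-derived growth factor that acts on PDGF receptor alpha, rose 2.06-fold. It had 7.05, 7.82 and 7.40 in SOD1 G93A arrays and 6.54, 6.40 and 6.21 in WT arrays (log2 fold change 1.04, adjusted p = 0.0209 from limma), and its other probe set rose by 0.77. The call of *Pdgfc* was lost without SOD1 G93A replicates 2 and 3 or WT replicates 2 and 3 (adjusted p = 0.0597, 0.0817, 0.0725 and 0.0896). *Pdgfa* (0.71) and *Pdgfb* (0.66) did not pass by their brightest probe sets, and *Pdgfd* and *Vegfd*, both below 5, had -0.07 and 0.035. The receptors *Flt4*, of VEGF-C and VEGF-D, *Tie1*, *Pdgfra* and *Pdgfrb*, and the phosphatase gene *Ptprb* that acts on *Tek*, did not pass, at -0.25 to 0.016. For angiopoietins 0 of 4 passed in limma, and none of the 4 had an unadjusted p under 0.05.

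Of 16 semaphorin, plexin and adaptor genes, a list that includes partners of the neuropilins, 1 was higher. *Gipc1*, which encodes an adaptor that binds the cytoplasmic end of neuropilin 1, had 7.44, 7.39 and 7.63 in SOD1 G93A and 6.99, 6.92 and 6.88 in WT arrays, a 1.47-fold rise (adjusted p = 0.027 from limma). Its call was lost without SOD1 G93A replicates 2 and 3 or WT replicates 2 and 3 (adjusted p = 0.0693, 0.104, 0.0902 and 0.103). The 7 class 3 semaphorin genes, a class that includes ligands of the neuropilins, had differences of -0.17 to 0.0998, and none passed. The plexin genes, a family that includes signalling co-receptors of the neuropilins, had -0.34 to 0.25, and none of these passed either. Of 5 genes of the endothelin system besides *Ednrb*, 0 passed in limma and 2, *Edn1* and *Ece2*, were higher at an unadjusted p under 0.05. *Edn1*, the gene of the ligand endothelin 1, had 7.83, 7.82 and 7.85 in SOD1 G93A and 7.77, 7.29 and 7.46 in WT arrays, a difference of 0.33 (adjusted p = 0.223 from limma) without overlap.

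Downstream of the receptors, 1 of 27 genes rose and 3 fell. *Fyn*, of a Src family kinase, had a log2 fold change of 0.48, the focal adhesion adaptor gene *Pxn* -0.74, the docking protein gene *Gab1* -0.57 and the kinase gene *Prkca* -0.49. The other probe sets of these 4 genes did not pass. The call of *Pxn* was lost without SOD1 G93A replicates 2 and 3 or WT replicate 3 (adjusted p = 0.0501, 0.0572 and 0.0516), while *Fyn* and *Gab1* each passed in 1 and *Prkca* in 2 of the 6 fits that left out 1 array. Of 12 genes of feedback and matrix *Adamts1* rose, a protease gene whose product binds VEGF-A. It had 9.97, 10.04 and 10.17 in SOD1 G93A and 9.42, 9.18 and 8.99 in WT arrays, a 1.82-fold rise (adjusted p = 0.0118 from limma) that was lost without SOD1 G93A replicates 2 and 3 or WT replicate 3 (adjusted p = 0.0525, 0.0581 and 0.0503).

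**Figure D4:**
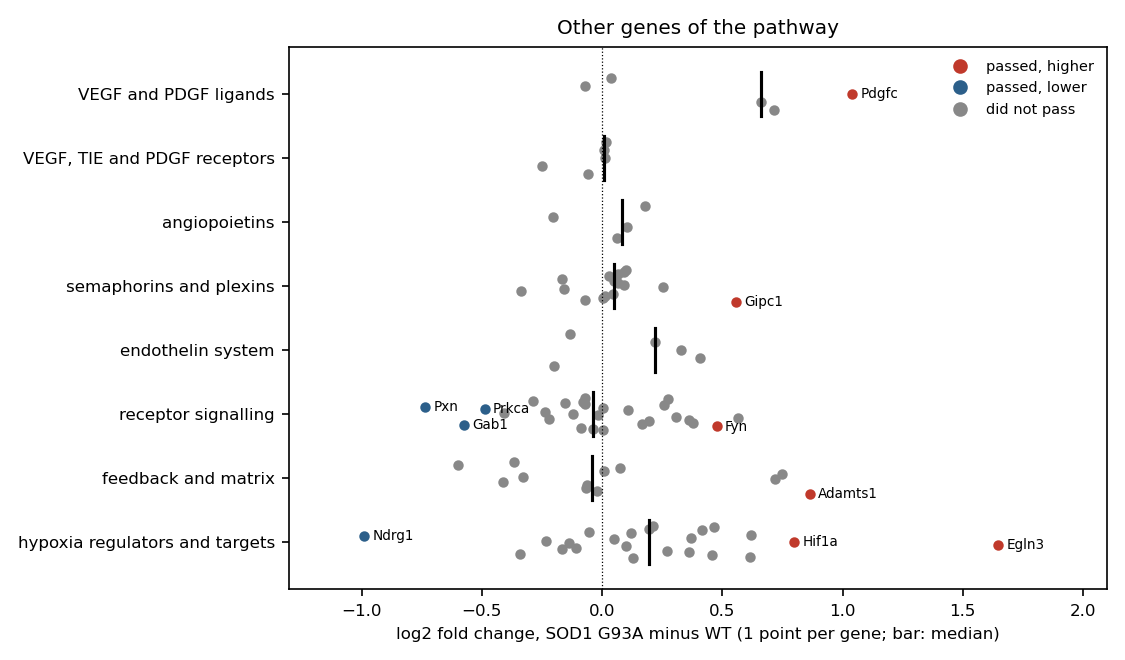
Log2 fold change (SOD1 G93A minus WT, x axis) of other pathway genes by role, 1 point per gene by its brightest probe set, with the median of each list as a bar. The 10 genes that passed are named, from *Egln3* (1.65) to *Ndrg1* (-0.99), and the other points lie mostly near 0.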

How the data were processed

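RNA of 3 SOD1 G93A and 3 WT pools of sorted cells was measured on Affymetrix mouse whole-genome arrays. The authors deposited log2 signals, 1 per probe set and array, credited by the submitters' processing notes to RMA in Partek without a version. RMA corrects background and equalises the arrays' distributions, so a change shared by most genes would not show. The study's methods name MAS signals and detection calls and a double amplification of the RNA, where the labels describe standard labelling. No MAS value entered a test.

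The 45037 probe sets other than 64 controls were fitted with limma 3.58.1 in R 4.3.3 (lmFit and eBayes, genotype as the term), with Benjamini-Hochberg adjustment over them and 95% intervals from the moderated fit. By the platform's annotation 34945 probe sets have 1 gene symbol, 932 several and 9160 none. Genes of other lists were read by their brightest probe set, and summed signals add these on the linear scale. The genes named are each member by each probe set, and the genes of other lists that passed, at most 4 of a list, with some marker lists given by counts. Further examples were chosen for their role or after their values were seen. The members and lists were chosen with earlier results of these data known.

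The fit was tested on simulated data of 3 arrays against 3 over 45037 probe sets. The number of arrays limits the precision. Alternatives covered other tests and thresholds, 1 value per gene, a minimum signal of 5, other scalings, array weights, the replicate number, the *Gapdh* covariate and each array left out. Python 3.11.15, pandas 2.3.3 and matplotlib 3.10.9 served for promoters and figures.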

Additional observations from a re-analysis of the deposited data

How the results depend on the processing

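Of the 8 probe sets that passed, the direction was kept in each of 147 values over 19 alternatives, and 99 of these values passed. The counts of member probe sets (7 higher, 1 lower) and of pathway genes (6 higher, 4 lower) both fell to 0 and 0 with the methods' t-test, with the equal-variance t-test and with the *Gapdh* covariate. At an unadjusted p under 0.05 the member counts under these settings were 9 higher and 1 lower, 12 higher and 1 lower, and 8 higher and 1 lower, and the pathway counts 14 and 7, 18 and 8, and 8 and 8. The share of all probe sets under that limit is not given for these settings, so the counts stand without a background. With the covariate the called *Flt1* and *Nrp2* differences were 0.80 to 1.27, though none passed. Those of *Nrp1* 1418084_at and *Ednrb* 1437347_at became clearly smaller, and that of *Nrp1* 1448944_at slightly smaller. At the methods' fold threshold with an unadjusted p, 5 member probe sets were higher and 1 lower with either test, without the 2 of *Nrp1*, and pathway genes had 3 higher and 1 lower. With 1 probe set per gene, which leaves 10 probe sets of members, 2 member genes were higher, and with the mean of a gene's probe sets 3 were higher, with 2 pathway genes lower. With trend and robust 2 pathway genes were lower, and with array weights 11 were higher. Without both arrays numbered 1, chosen after seeing the data, 2 member probe sets were lower and 12 pathway genes higher. Leaving out 1 array gave 2 to 9 member probe sets higher and 0 to 1 lower, and 1 to 9 pathway genes higher and 1 to 4 lower, with the fewest members (2) without SOD1 G93A replicate 2 or WT replicate 3 and 3 without SOD1 G93A replicate 3. With the replicate number as a block 11 member probe sets and 15 pathway genes were higher. Same-numbered arrays deviated together with correlations of 0.444, 0.24 and 0.029 for numbers 1 to 3, and 3 of 6 arrays correlated best with their own number, so the numbers were not taken as pairs. The study's methods report litter matching between the groups, but the sample titles do not say that same-numbered arrays share litters. Directions turned for probe sets that did not pass. With the *Gapdh* covariate *Vegfa* 1451959_a_at had -0.0074 and *Vegfc* 1419417_at -0.067, and without both arrays numbered 1 *Vegfc* 1440739_at had 0.022. With 1 array left out, *Vegfc* 1419417_at ranged from -0.084 to 0.0997, *Pgf* from -0.024 to 0.20 and *Ednrb* 1426314_at from -0.13 to 0.012. Apart from what the construction of a setting shows, the cause of these changes was not tested. Signals close to background limit *Vegfc*, *Tek* and *Ednrb* 1426314_at.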

Other observations

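In 5 pathway genes the brightest probe set did not pass and another did, higher in 3 and lower in 2, chosen here after their values were seen. *Slc2a1*, of the glucose transporter GLUT1 and a target of hypoxia-inducible factors, had 10.49 in SOD1 G93A and 10.02 in WT arrays by its brightest probe set (log2 fold change 0.47, adjusted p = 0.103 from limma), while its other 2 rose by 0.74 and 1.01 (adjusted p = 0.0379 and 0.0123). *Pdgfa*, of platelet-derived growth factor A, rose by 1.02 in its dimmer probe set (adjusted p = 0.00738) beside 0.71 in the brighter (adjusted p = 0.0511). For *Pdk1*, of a kinase that limits pyruvate entry to mitochondria, 1 of 4 probe sets rose, at 0.68 (adjusted p = 0.0127), and the other 3 had -0.053 to 0.044. A dimmer probe set of *Spry2*, a feedback inhibitor of receptor tyrosine kinases, had -0.78 (adjusted p = 0.0235), and 1 of 6 of *Pik3ca*, of a catalytic subunit of PI3-kinase, had -0.70 (adjusted p = 0.0216).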
